A study of Mus musculus with 12 samples.

Results

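The Pnma genes encode the paraneoplastic Ma antigens, and 4 of them (Pnma1, Pnma2, Pnma3 and Pnma5) are described here in the mouse osteosarcoma lines Dunn and LM8. They were found as the array probes whose accession belongs to 1 of these genes, which gave 6 of 39429 probes and 4 of the 20144 genes that could be matched. The family was picked because the signal of Pnma5 was high in late LM8 cells alone, so the values of all members on the late LM8 arrays are a description and carry no test, and Pnma5 carries none in any comparison.

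The Dunn line metastasises little, and its descendant LM8 was obtained from it by selection in animals for spread. Both are labelled osteoblastic, both were grown in the same medium without any agent, and RNA was taken before the cultures were dense. Early cells were at passage 25 (Dunn) and 24 (LM8), late cells at passage 86 (Dunn) and 91 (LM8), and each of the 4 groups was hybridised to 3 single-colour Agilent arrays. Each group is 1 line at 1 passage, and nothing in the labels says that its 3 arrays came from separate cultures, so p-values measure only the spread between these arrays. The 12 arrays lay on 3 slides that each held 1 array of every group at the same position, so position and group cannot be told apart.

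The family descends from the Gag protein of a Ty3/gypsy retrotransposon, the protein that forms the capsid of such elements, and Pnma2 protein is known to assemble into capsids. The genes are best known from the nervous system, and antibodies against the Ma proteins, raised when a tumour outside the brain makes them, mark a group of paraneoplastic neurological disorders. Other members act in cell death, among them Moap1 (also called Pnma4), which binds Bax at mitochondria.

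The processed signal is the brightness of a probe after the scanner software subtracted the background, and the scaled log2 signal is its log2 relative to the 75th percentile of the same array. A probe counts as detected when the scanner software marked it as well above background. Levels are compared between groups for the same probe, never between probes.

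The 75th percentile signal ranged from 287.2 to 603 in early Dunn, 685.9 to 961.4 in late Dunn, 893 to 1316 in early LM8 and 1166 to 1903 in late LM8 cells, and 39.0% to 59.6% of the probes were detected per array. Late Dunn replicate 1 stood apart, with correlations of 0.919 and 0.923 with its replicates, where other replicate pairs had at least 0.961. On this array and on early Dunn replicate 1, the dimmest detected probes had signals of 36.4 and 32.3, against 9.03 to 16.7 on the other 10 arrays. The median difference over all probes was -0.33 for late versus early Dunn, -0.85 for early LM8 versus early Dunn, -0.20 for late versus early LM8 and -0.66 for late LM8 versus late Dunn on the scaled log2 scale. Over the 12754 probes detected on all 12 arrays it was -0.27, -0.48, -0.070 and -0.27, in the same order. With 3 arrays in a group, their number limits how precise each value is.

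Pnma5 and Pnma3 are neighbours on the X chromosome, with 0 protein-coding genes between them, and they are the members whose signal differed most between late LM8 cells and the rest. The 250 bases before their annotated starts are shown because both genes stood higher in the same cells. The sequences are those of RefSeq, build GRCm38.p6, given 5' to 3' on the strand of the gene in lower case, and capitals mark the dinucleotide CG, which reads the same on both strands.
Pnma5, chrX:73037104-73037353, minus strand: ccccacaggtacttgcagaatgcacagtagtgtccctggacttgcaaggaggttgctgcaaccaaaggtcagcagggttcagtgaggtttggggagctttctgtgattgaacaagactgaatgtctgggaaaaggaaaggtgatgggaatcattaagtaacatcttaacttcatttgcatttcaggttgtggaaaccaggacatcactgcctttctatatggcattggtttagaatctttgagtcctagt
Pnma3, chrX:73064537-73064786, plus strand: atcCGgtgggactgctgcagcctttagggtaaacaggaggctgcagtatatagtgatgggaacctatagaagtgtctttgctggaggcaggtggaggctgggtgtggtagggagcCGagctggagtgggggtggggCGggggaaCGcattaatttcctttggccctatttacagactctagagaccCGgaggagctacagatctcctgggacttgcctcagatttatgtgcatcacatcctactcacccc
The Pnma5 window holds 0 CG and the Pnma3 window 5, whereas the corresponding window of Pnma1 holds 15. Of the 32851 promoter windows of this length in the reference, 92.1% hold at least 1 CG and 7.87% hold none, and the median is 6. The start used for Pnma5 lies inside the annotated span of that gene, since other predicted transcripts begin farther upstream. RefSeq windows were found for 3 of the 4 members, and Pnma2 had no entry. These letters say nothing of which start was used in these cells.

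Pnma5 is known from the nervous system and, in mice, from the oocyte. Its single probe was detected on the 3 late LM8 arrays and on none of the other 9. In late LM8 cells the processed signal was 6105, 9191 and 7572 on replicates 1, 2 and 3. In early LM8 cells it was 6.32, 10.46 and 7.28. The late LM8 arrays are all high and the early ones all at background, with no overlap. The signal was 13.1, 16.6 and 4.17 in early Dunn cells, and 13.2, 9.44 and 6.89 in late Dunn cells. Dunn cells therefore gave no detected signal at either passage.

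On the scaled log2 scale Pnma5 stood at 2.38 ± 0.10 (SD, n = 3) in late LM8 and -7.16 ± 0.20 (SD, n = 3) in early LM8 cells. The difference was 9.54 (SE 0.19), and it was 9.53, 9.25 and 9.85 within the 3 slides. Early LM8 cells were not above background, so only a lower limit can be given, at least 474-fold higher. For such limits, each dim array entered with the lowest signal of its detected probes, or with the signal of the probe itself where that was greater. These limits, here and below, hold for the main processing only, and alternatives can give differences smaller than them. With normexp background correction the Pnma5 difference between late and early LM8 cells was 6.04, which is below its limit. Against late Dunn cells the difference was 8.76 (SE 0.31), at least 263-fold higher in late LM8 cells. Leaving out late Dunn replicate 1, the value was 9.03, and over all arrays left out in turn it ran from 8.61 to 9.03. With normexp background correction it was 5.51, again below the limit. In these bulk samples a larger share of cells with Pnma5 and more Pnma5 RNA per cell cannot be told apart.

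The levels of Pnma5 in the other 3 groups are given for order only. They were -5.39 ± 0.64 in early Dunn, -6.38 ± 0.47 in late Dunn and -7.16 ± 0.20 in early LM8 cells (SD, n = 3 each). None of these 9 arrays was above background, so their order is not one of measured levels and has no fold.

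**Figure D1:**
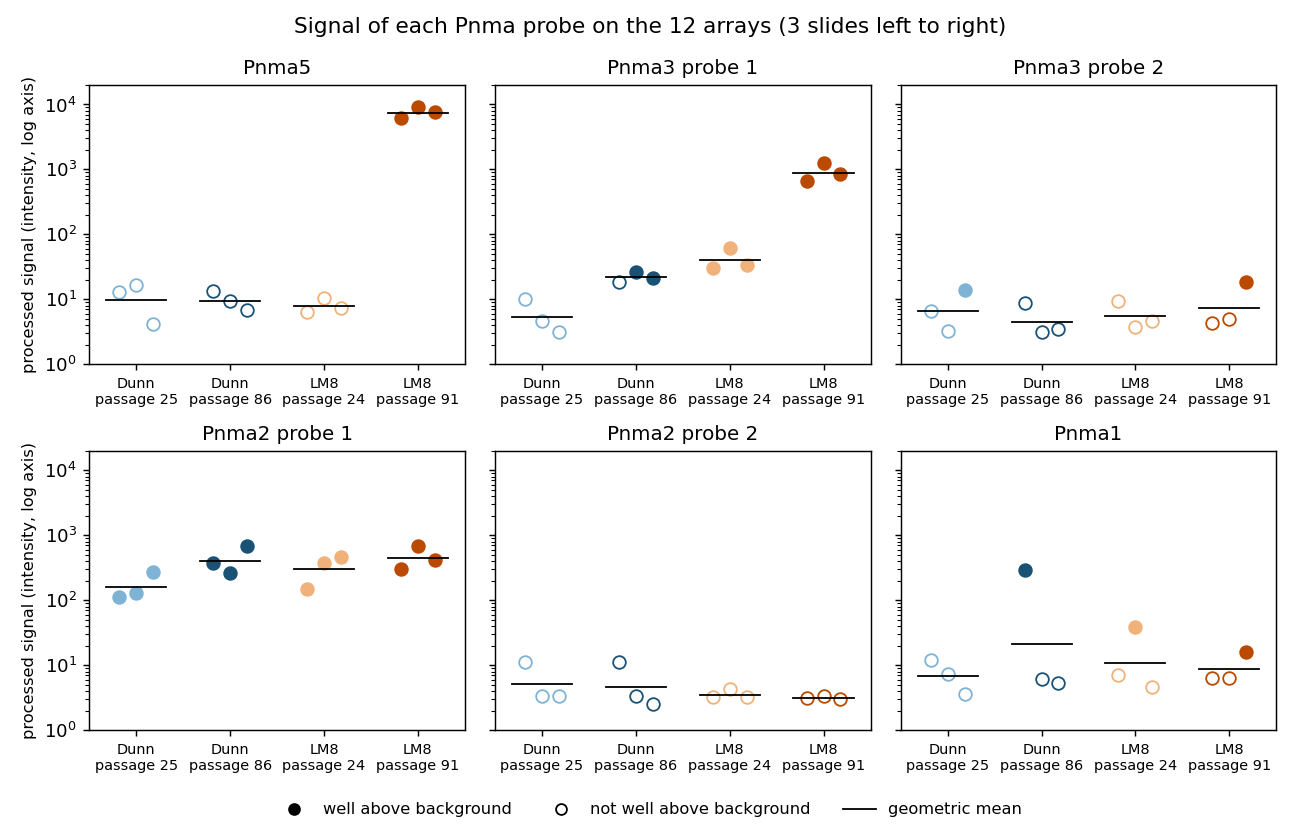
Processed signal (vertical log axis) of the 6 Pnma probes on each of the 12 arrays, by line and passage, with slides 1 to 3 from left to right in each group. Filled points are well above background and lines are geometric means over 3 arrays. Pnma5 lies between 6105 and 9191 in late LM8 cells and at 16.6 or below on the other 9 arrays, and Pnma3 probe 1 is highest in the same 3 arrays.

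Pnma3, which encodes a Ma antigen with a zinc finger end and whose human gene is read with a ribosomal frameshift, has 2 probes on the array. Probe 1 was detected on all 6 LM8 arrays and on 2 of 6 Dunn arrays. Its processed signal was 673.1, 1253 and 846.8 in late LM8 cells. It was 30.3, 61.3 and 33.7 in early LM8 cells. The dimmest late LM8 array was thus well above the brightest early one. In late Dunn cells the signal was 18.7, 26.6 and 21.3, the last 2 of them detected. In early Dunn cells it was 10.1, 4.59 and 3.14, none of them detected. Before scaling, no array of a group reached the range of the next, in the order early Dunn, late Dunn, early LM8 and late LM8.

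On the scaled log2 scale the order of Pnma3 probe 1 was early Dunn (-6.27 ± 0.91), late Dunn (-5.17 ± 0.16), early LM8 (-4.82 ± 0.37) and late LM8 (-0.69 ± 0.10; SD, n = 3 each). Early and late Dunn cells overlapped on this scale, and so did late Dunn and early LM8 cells. Late LM8 cells were apart from every other group. The difference between late and early LM8 cells was 4.13 (SE 0.24), a 17.5-fold higher signal, and 4.09, 3.82 and 4.47 within the slides. Late LM8 cells were 4.48 (SE 0.21) above late Dunn cells, or 22.3-fold, with 2 of 3 late Dunn arrays above background. Without late Dunn replicate 1 this difference was 4.40, with normexp background correction 2.52 and with the mean of both probes 2.16. The difference between late and early LM8 cells was 2.81 with normexp background correction.

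Pnma3 probe 2 did not follow probe 1. It was detected on 2 of 12 arrays, early Dunn replicate 3 (signal 13.8) and late LM8 replicate 3 (18.3). Between late and early LM8 cells it differed by 0.050 (SE 0.73). The within-slide differences were -1.53, -0.10 and 1.79, so the slides did not share a direction. Averaging both probes of Pnma3 gave a late minus early LM8 difference of 2.09. The higher signal of Pnma3 in late LM8 cells therefore rests on 1 of its 2 probes.

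Comparing late with early Dunn cells asks how passage alone changes the parental line, and here Pnma1, Pnma2 and Pnma3 could be tested. None of their 5 probes was called by limma at an adjusted p under 0.05, and 0 of the 5 had an unadjusted p under 0.05 by limma, beside 5.4% of all probes, or by the methods' t-test. With the slide as a replicate block 1 of the 5, Pnma2 probe 2, had an unadjusted p under 0.05 (0.0249, limma adjusted p = 0.207), beside 22.5% of all probes, and this probe was detected on no array. Of all 39407 probes tested in limma, 0% were called higher and 0.00254% lower. At the study's level of over 2-fold with an unadjusted p under 0.05, 1.2% of all probes were higher and 2.78% lower, and no Pnma probe was among them. Pnma3 probe 1 differed by 1.10 (SE 0.52, limma adjusted p = 0.782), with -0.078, 1.86 and 1.51 within the slides. With normexp background correction this difference was -1.03 and with a floor on dim signals -0.10, so its direction was not kept. With the slide as a replicate block the limma adjusted p of Pnma3 probe 1 was 0.279. Pnma3 probe 2 differed by -1.53 (SE 0.92, limma adjusted p = 0.782), and was detected on 1 of these 6 arrays.

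Comparing early LM8 with early Dunn cells asks how the metastatic line differs from its parent before long culture. None of the 5 probes of Pnma1, Pnma2 and Pnma3 was called by limma at an adjusted p under 0.05, beside 0.969% of all probes called higher and 2.79% called lower. At the study's level 4.1% of all probes were higher and 34.5% lower. Pnma3 probe 1 was among the former and Pnma2 probe 2, which was detected nowhere, among the latter. These were also the 2 of 5 probes with an unadjusted p under 0.05 in limma, beside 43.1% of all probes, whereas the methods' t-test had 1 such probe and 0 after adjustment. Pnma3 probe 1 was higher in early LM8 cells by 1.45 (SE 0.52, unadjusted p = 0.0274, adjusted p = 0.0818 in limma). The groups did not overlap, and the slides gave 0.38, 2.61 and 1.36. Early Dunn cells were not above background for this probe, and no lower limit above 1-fold could be given. Its direction and its call changed with the processing: the difference was 2.57 with quantile normalization (limma adjusted p = 0.00743), -1.31 with normexp background correction and -0.069 with a floor on dim signals. With the slide as a replicate block the limma adjusted p was 0.110. Without early Dunn replicate 1 it was 0.0412, at a difference of 1.95.

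Pnma2 encodes Ma2, the antigen most often bound by the antibodies of patients. Its probe 1 was detected on all 12 arrays. The processed signal was 111, 131.3 and 270.7 in early Dunn cells. It was 370.3, 265.6 and 681.9 in late Dunn cells. The early LM8 arrays had 150.8, 376.6 and 470.8. The late LM8 arrays had 305.8, 695.6 and 418.8. Every group overlapped with at least 1 other, and the spread within groups was as wide as the distance between them. On the scaled log2 scale the order was early LM8 (-1.91 ± 0.61), late LM8 (-1.70 ± 0.24), early Dunn (-1.36 ± 1.12) and late Dunn (-0.97 ± 0.93; SD, n = 3 each), and no neighbours in this order were apart by more than their spread.

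Pnma2 probe 1 differed by 0.40 (SE 0.75, limma adjusted p = 0.945) between late and early Dunn cells. It differed by -0.55 (SE 0.63, limma adjusted p = 0.513) between early LM8 and early Dunn cells, where the deposited signals without scaling gave 0.92. Late minus early LM8 cells gave 0.21 (SE 0.34), and late LM8 minus late Dunn cells -0.73 (SE 0.51), without a test. Probe 2 of Pnma2 was detected on none of the 12 arrays, and its differences, such as -1.99 (SE 0.60, limma adjusted p = 0.0776) for early LM8 versus early Dunn, have no fold.

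Pnma1, which encodes Ma1 and has been tied to cell death in neurons, has 1 probe and lies on chromosome 12. It was detected on 3 of 12 arrays, each in another group. The signals there were 294.9 on late Dunn replicate 1, 38.4 on early LM8 replicate 2 and 16.1 on late LM8 replicate 3. The other 9 arrays had 3.61 to 12.2. No group was above background on more than 1 array. The difference between late and early Dunn cells was 0.68 (SE 1.68, limma adjusted p = 0.970). Without late Dunn replicate 1, the array that stood apart, it was -1.25 (limma adjusted p = 0.210). The difference between early LM8 and early Dunn cells was -0.81 (SE 0.79, limma adjusted p = 0.443).

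**Figure D2:**
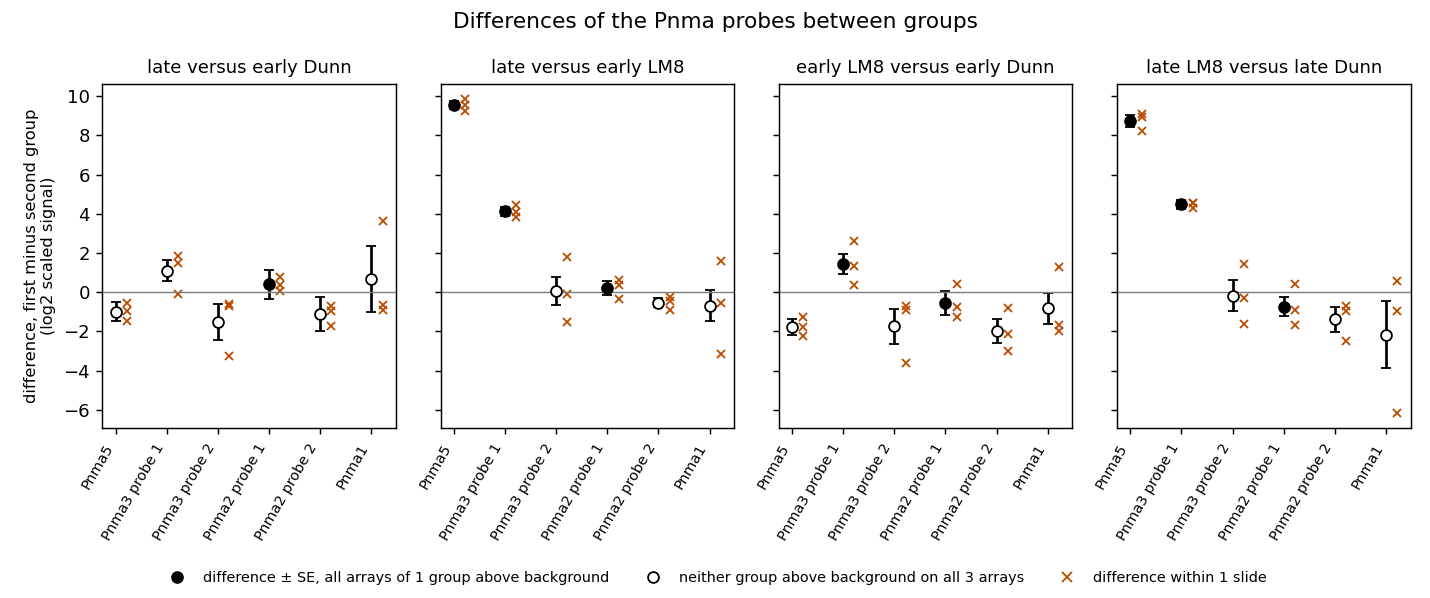
Differences of the scaled log2 signal (vertical axis) for the 6 Pnma probes in the 4 comparisons, with standard errors as bars and the 3 within-slide differences as crosses. Hollow points mark probes for which neither group was above background on all 3 arrays. Pnma5 and Pnma3 probe 1 lie at 9.54 and 4.13 for late versus early LM8 and at 8.76 and 4.48 for late LM8 versus late Dunn, while the other probes lie near 0 or below background.

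The further members of the family were followed as a list of 7 genes, all with a probe. Moap1 was the 1 gene of the 7 detected on all 12 arrays, and 5 were detected on at least 1 array. In each of the 4 comparisons limma called 0 of the 7 at an adjusted p under 0.05. At an unadjusted p under 0.05 it had 0 in late versus early Dunn, 3 in early LM8 versus early Dunn, 2 in late versus early LM8 and 0 in late LM8 versus late Dunn, where 5.4%, 43.1%, 15.6% and 19.6% of all probes had one. The share of all probes called in late versus early LM8 cells was 0.862% higher and 1.33% lower, and in late LM8 versus late Dunn cells 0.918% higher and 1.99% lower. The median difference of the list between late and early LM8 cells was -0.52, beside -0.20 over all probes.

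Moap1, the Bax-binding member, had signals from 533.6 to 945.8 in late LM8 and from 455.8 to 698.2 in early LM8 cells. It differed by -0.10 (SE 0.20) between them and by 0.75 (SE 0.53, limma adjusted p = 0.300) between early LM8 and early Dunn cells. The probe of Gm20604, a readthrough gene annotated across Moap1, was detected on 11 arrays and differed by -0.069 (SE 0.17) between late and early LM8 cells. Signal from exons that both transcripts share cannot be told apart. Ccdc8 (Pnma8c), a component of a growth-control complex, had signals of 54.0 to 63.3 in late and 60.2 to 69.5 in early LM8 cells and was not detected in early Dunn cells. Pnmal1 (Pnma8a) was detected on all 6 LM8 arrays at signals of 13.8 to 25.2. Zcchc12 (Pnma7a) and Pnmal2 (Pnma8b) were detected on no array, and Zcchc18 (Pnma7b) on 1 late LM8 array. None of the 7 was detected on the 3 late LM8 arrays alone.

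Of the 5 partners of Moap1 in cell death (Bax, Bcl2, Bcl2l1, Rassf1 and Tnfrsf1a), 4 were detected on all 12 arrays, and limma called 0 of them in each comparison. Unadjusted, 0, 2, 1 and 2 of them had a p under 0.05 in late versus early Dunn, early LM8 versus early Dunn, late versus early LM8 and late LM8 versus late Dunn cells, again beside 5.4%, 43.1%, 15.6% and 19.6% of all probes. After adjustment the methods' t-test called 1 of the 5 in late LM8 versus late Dunn cells and 0 in each other comparison. Bax, the executioner that opens the mitochondrial membrane, differed by 0.33 (SE 0.45) between late and early LM8 cells.

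Other genes listed as taken from a Ty3/gypsy Gag were followed as a list of 13, of which 12 had a probe and 9 were detected on at least 1 array. The list and its counts include Asprv1, whose name is that of a retroviral-like protease and not of a Gag. In late versus early LM8 cells limma called 0 of 12 higher and 1 lower, beside 0.862% and 1.33% of all probes. In early LM8 versus early Dunn cells it called 0 higher and 2 lower, beside 0.969% and 2.79%. The gene lower in late LM8 cells was Rtl9, which fell from -2.89 ± 0.17 to -4.01 ± 0.15 (SD, n = 3), by 1.12 (SE 0.19, limma adjusted p = 0.0409), a call lost with the replicate block (adjusted p = 0.104), with normexp background correction (-0.77), with the deposited signals without scaling (-0.75), in 1 fit over all 12 arrays, with the methods' t-test and without any 1 of the 6 arrays (differences of -1.20 to -1.02, limma adjusted p = 0.0843 to 0.189). Peg10, an imprinted gene needed for the placenta, was detected on 5 of 6 Dunn arrays and on none of the 6 LM8 arrays. It was lower in early LM8 than in early Dunn cells by a difference of -4.38 (SE 0.32, limma adjusted p = 0.00165), at least 4.90-fold, and in late LM8 than in late Dunn cells at least 11.5-fold (limma adjusted p = 9.32e-04). Its second probe gave -3.91 and -4.94 in these comparisons. Of the alternatives tried, normexp background correction alone ended the call between the early lines (-2.30, limma adjusted p = 0.0551). Rtl9 was also lower in early LM8 than in early Dunn cells, by a difference of -1.84 (SE 0.32, limma adjusted p = 0.0313; 0.0840 with the replicate block), and this call was also lost with the deposited signals without scaling (-0.37, limma adjusted p = 0.647), with normexp background correction (-1.73, limma adjusted p = 0.0551) and without any 1 of the 3 early LM8 arrays or early Dunn replicate 3 (-1.93 to -1.66). In late versus early Dunn cells limma called 0 of 12, and 4 had an unadjusted p under 0.05, beside 5.4% of all probes.

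Arc, the synaptic Gag-derived gene, was detected on all 6 LM8 arrays and differed by -0.72 (SE 0.27, limma adjusted p = 0.297) between late and early passages. Late minus early Dunn cells gave -1.79 (SE 0.71, limma adjusted p = 0.782), with Arc detected on 2 of 3 arrays at each passage. Rtl8b and Rtl8c, X-linked relatives, were bright throughout, with late minus early LM8 differences of 0.17 (SE 0.19) and 0.10 (SE 0.18). The fits of Rtl8c leave out 1 flagged array in each Dunn group. Rtl1 and Ldoc1 were detected on no array.

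**Figure D3:**
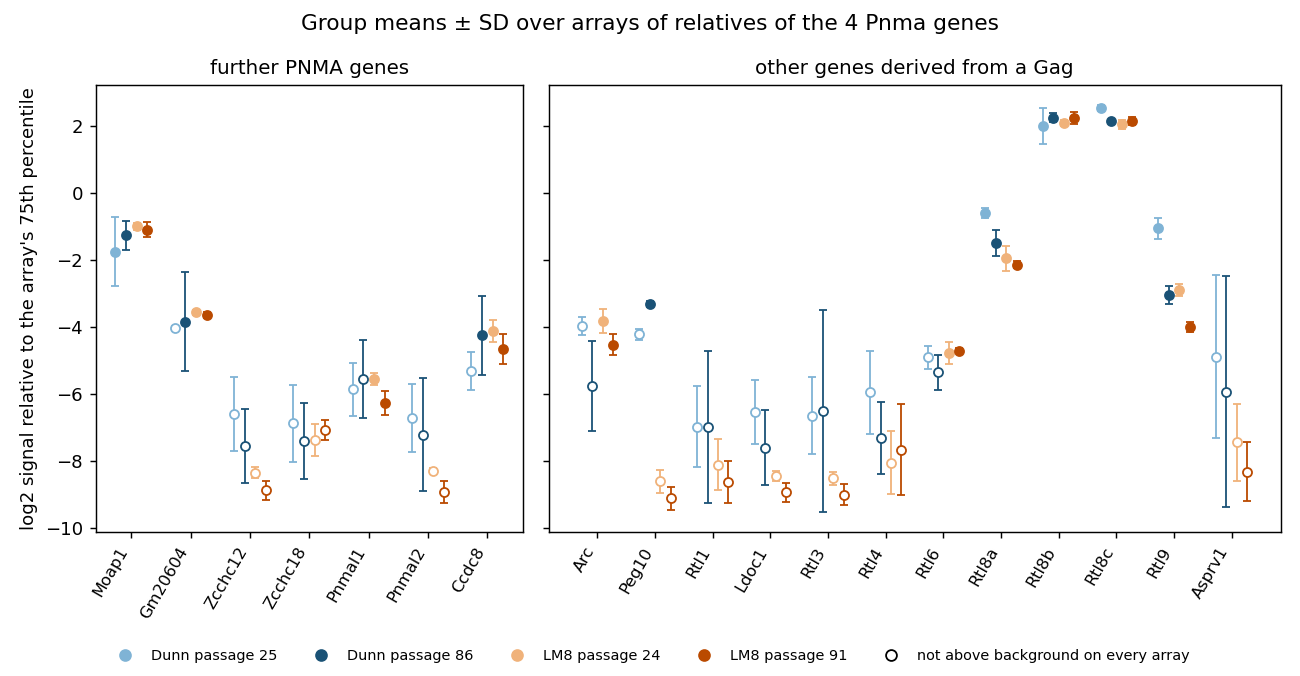
Scaled log2 signal (vertical axis, mean ± SD over the arrays of a group) of 7 further PNMA genes and 12 genes of the Gag list, the protease gene Asprv1 included, in the 4 groups, with hollow points where not every array was above background. Levels can be compared between groups for 1 gene but not between genes. Peg10 is above background in Dunn cells only, and none of the genes is above background on the 3 late LM8 arrays alone. Rtl9 is lower at the late passage in both lines and lowest in late LM8 cells.

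Since Pnma5 and Pnma3 are adjacent, the protein-coding genes with a probe on either side were read in their order on the X chromosome, 10 on each side, of which 19 are not members. Of these 19, 11 were detected on at least 1 array and 2 on all 12. In late versus early LM8 cells limma called 3 of 19 higher (Magea10, Xlr4a and Xlr4b) and 0 lower, beside 0.862% and 1.33% of all probes. The median of the 19 was -0.20, beside -0.20 over all probes. The list follows the location of Pnma5, so it is not independent of how Pnma5 was picked.

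Xlr4b, of a lymphocyte-regulated X-linked family, had signals of 610.8 to 953.7 in late LM8 and 3.18 to 7.58 in early LM8 cells. The difference was 6.80 (SE 0.26, limma adjusted p = 1.82e-04), at least 46.6-fold higher. Xlr4b was detected on 4 of 6 Dunn arrays, unlike Pnma5. Early LM8 cells were below early Dunn cells for it, by a difference of -3.98 (SE 0.38, limma adjusted p = 0.00369), a call lost with normexp background correction (-2.12, limma adjusted p = 0.0551). Xlr4a rose by 4.02 (SE 0.32, limma adjusted p = 0.00169) in late LM8 cells, at least 13.4-fold, and its second probe by 4.42 (SE 0.35). Unlike Pnma5, Xlr4a was also detected on 2 of 3 late Dunn arrays. Between the late lines neither probe was called, at 2.27 (SE 0.81, limma adjusted p = 0.222) and 1.98 (SE 0.36, limma adjusted p = 0.0576). Magea10, a testis antigen gene, rose by 3.09 (SE 0.29, limma adjusted p = 0.00329), at least 1.82-fold, from signals not above background to 25.9 to 35.8. Its call was lost with normexp background correction (0.23), with a floor on dim signals (0.87), in 1 fit over all 12 arrays (limma adjusted p = 0.326) and with the methods' t-test (adjusted p = 0.0559), while those of Xlr4a and Xlr4b were kept under every alternative tried. The Xlr genes are near-identical copies, and their probes may share transcripts.

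The remaining genes of this stretch were not called in late versus early LM8 cells. Nsdhl and Cetn2, housekeeping genes beyond Zfp185 on one side of Pnma5, differed by 0.18 (SE 0.25) and -0.16 (SE 0.22) between late and early LM8 cells. For Cetn2 the fits with early Dunn leave out 1 flagged array. A dimmer probe of Nsdhl, detected on 10 of 12 arrays, differed by 0.54 (SE 0.36, limma adjusted p = 0.387). This probe was higher in LM8 than in Dunn cells by 1.89 at the early and 1.44 at the late passage, without a call (limma adjusted p = 0.0776 and 0.0962). Xlr3a, detected on all 6 LM8 arrays, had the largest positive difference of the genes not called (0.93). Its signals were 21.6 to 95.9 in early and 69.4 to 220.2 in late LM8 cells. Xlr3b, detected on all 12 arrays, differed by 0.46 (SE 0.28). Zfp185, the nearest gene with a probe on that side, was detected on 2 of 12 arrays and differed by 0.40 (SE 0.27). In late versus early Dunn cells limma called 0 of the 19, and 0 had an unadjusted p under 0.05, beside 5.4% of all probes. These counts leave out the pairing by slide. With the slide as a replicate block limma called 0 of the 19, and none of the other lists, at an adjusted p under 0.05. With the block 22.5% of all probes had an unadjusted p under 0.05, and the lists were not counted at that level. In late LM8 versus late Dunn cells 1 of 19, Xlr4b, was called higher, by 3.23 (SE 0.50, limma adjusted p = 0.0376), and 0 with the replicate block. The call of Xlr4b between the late lines was also lost with quantile normalization (3.85), with the methods' t-test and without any 1 late LM8 array or late Dunn replicate 2 (3.12 to 3.32).

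**Figure D4:**
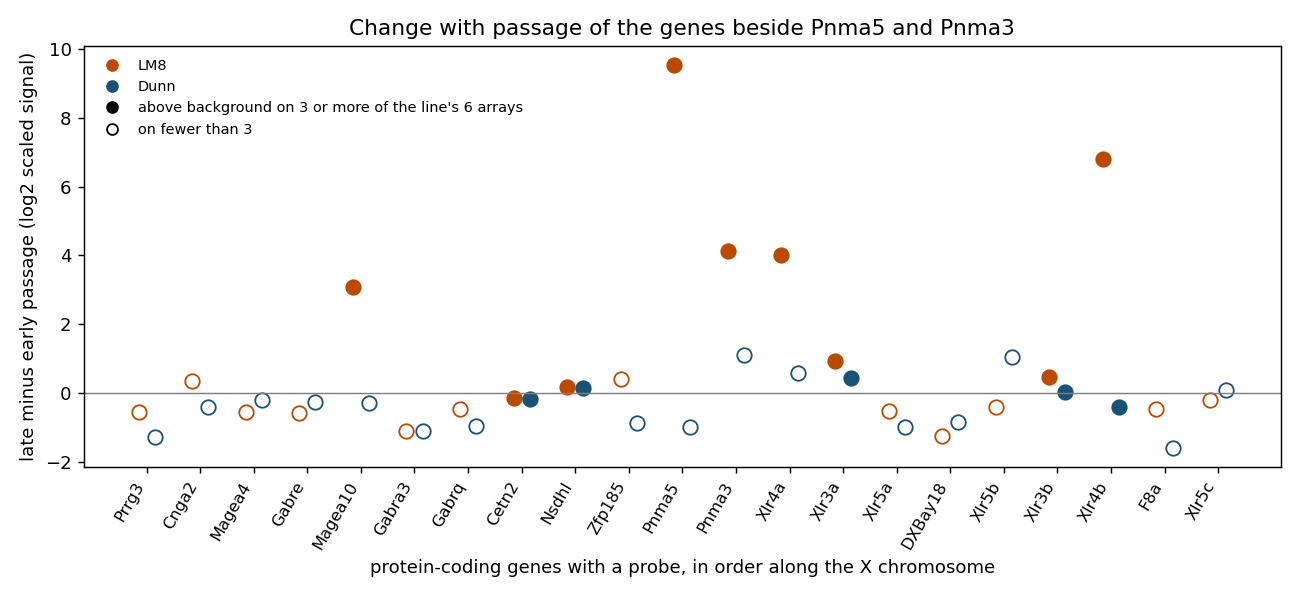
Late minus early passage difference of the scaled log2 signal (vertical axis) for Pnma5, Pnma3 probe 1 and the 19 nearest protein-coding genes with a probe, in gene order along the X chromosome, in LM8 and Dunn cells. Filled points were above background on at least 3 of the 6 arrays of the line. In LM8 cells Pnma5 (9.54), Xlr4b (6.80), Pnma3 (4.13), Xlr4a (4.02) and Magea10 (3.09) stand highest, followed by Xlr3a (0.93). Nsdhl (brightest probe) and Cetn2, between Magea10 and Pnma5, lie near 0 in LM8 cells.

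The pattern of Pnma5, detected on all 3 late LM8 arrays and on no other array, was shared by 167 probes, or 0.424% of all. Of these, 109 were matched to 108 genes, and 12 of the 109 lay on the X chromosome, 11.01% beside 3.99% of all matched probes. Early LM8 cells were not above background for any of them, so only lower limits can be compared. That of Pnma5, at least 474-fold higher in late LM8 cells, was the highest of the 167. The lower limits of the matched genes named by the size of the fitted difference were 34.9-fold for Gm9 and 21.4-fold for Ssx9, both on the X chromosome, 16.9-fold for Mapk10, a JNK kinase, 15.7-fold for Pramel39 and 13.7-fold for Zscan4c, a gene of the early embryo. Zscan4f, named after its values were seen, had a limit of 23.4-fold, so the order depends on the measure. The probes were selected on this contrast, so these values are a description.

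The likeness of other genes was measured as Pearson's r of the scaled log2 signal over the 12 arrays, among 10512 genes with a probe detected on all 12. Pnma3 probe 1 was most like Vat1l (r = 0.951), Dusp3 (0.922) and Apcdd1 (0.917). Pnma2 probe 1 was most like Gcm1 (0.964), B020031M17Rik (0.954) and Rhox8 (0.953), and Pnma1 most like Cadm4 (0.930), Mbd1 (0.929) and H4c14 (0.919), although Pnma1 was detected on 3 of the 12 arrays. These are the highest of many values over 12 arrays that share slides and fall into 4 groups, so they carry no p. The values of Pnma1 rest largely on the array that stood apart.

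The labelled cell type was checked by markers. Of 9 osteoblast markers 8 had a probe, and all 8 were detected, among them Runx2, Sp7 and Col1a1 on all 12 arrays. Limma called none of them in any comparison, although 0, 2, 1 and 2 of the 8 had an unadjusted p under 0.05, beside 5.4%, 43.1%, 15.6% and 19.6% of all probes, for late versus early Dunn, early LM8 versus early Dunn, late versus early LM8 and late LM8 versus late Dunn cells. Since Pnma genes are known from neurons, 6 neuron markers were read. All 6 were detected on at least 1 array and 3 on all 12. Their summed signal was 2889 to 4150 in early Dunn, 4615 to 6059 in late Dunn, 5810 to 9591 in early LM8 and 6657 to 12930 in late LM8 cells, without scaling. These unscaled sums include the brightness of each array, and the 75th percentile signal was likewise lowest in early Dunn and highest in late LM8 cells. The sum relative to each array's 75th percentile was 6.88 to 13.6, 4.86 to 8.83, 5.83 to 7.95 and 5.71 to 7.13, in the same order. In this sum the groups overlapped and late LM8 cells were not the highest. A sum across probes leans on the brightest, here Snap25 (signals of 2230 to 3360 in early Dunn and 3420 to 7920 in late LM8 cells). It therefore does not show how the dimmer markers stood. Between late and early LM8 cells none of the 6 was called, and Map2 and Tubb3 differed by 1.69 (SE 0.34, limma adjusted p = 0.0712) and 1.17 (SE 0.24, limma adjusted p = 0.0737). Syn1 was higher in early LM8 than in early Dunn cells by 2.52 (SE 0.37, limma adjusted p = 0.0182). Syn1 (3.25, SE 0.40, limma adjusted p = 0.0180) and Tubb3 (2.46, SE 0.35, limma adjusted p = 0.0299) were called higher in late LM8 than in late Dunn cells. With the replicate block none of the 6 markers was called. The call of Tubb3 between the late lines was lost with normexp background correction (1.26, limma adjusted p = 0.0585), and those of Syn1 and Tubb3 were lost without any 1 late LM8 array or late Dunn replicate 2 or 3 (3.03 to 3.32 and 2.13 to 2.52), and that of Syn1 between the early lines with normexp background correction (1.85), with the methods' t-test and without any 1 early LM8 array or early Dunn replicate 3 (2.43 to 2.67). Rbfox3, the defining marker of mature neurons, was detected on 2 late Dunn arrays and 1 late LM8 array and on no early array. Of 4 germ cell markers, Ddx4, Dazl and Dppa3 were detected on no array and Sycp3 on 2 late LM8 arrays (signals of 12.02 to 34.8 on the 3). The signals of the germ cell markers summed to 21.2 to 44.1 in late LM8 and 12.01 to 25.1 in early LM8 cells, or 0.0182 to 0.0323 and 0.0122 to 0.0191 relative to the 75th percentile, with 0.0240 to 0.0851 in early Dunn and 0.0157 to 0.0484 in late Dunn cells. Apart from Sycp3 on 2 late LM8 arrays, these are sums of signals not above background, so they do not rank the groups. Ddx4 and Dazl differed by -0.52 (SE 0.31) and -0.55 (SE 0.29) and Sycp3 by 1.51 (SE 0.52, limma adjusted p = 0.272) between late and early LM8 cells. Their part in the signal of Pnma5 and Pnma3 was not tested. Ptprc, Pecam1 and Epcam, markers of blood, vessel and epithelial cells, were called in no comparison, with signals of 9.44 to 17.6, 19.5 to 39.7 and 2.87 to 3.05 in late LM8 cells. Pecam1 was detected on all 3 late LM8, 2 early LM8 and 2 late Dunn arrays. Ptprc was detected on 1 array at each LM8 passage, and Epcam on 1 late Dunn and 1 early LM8 array. Cd68, a further blood cell marker listed, had no matched probe.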

How the data were processed

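The authors hybridised Cy3-labelled cRNA of 12 samples to Agilent mouse arrays and deposited the output of Feature Extraction 10.7.3, whose processed signal is an intensity after background subtraction without scaling between arrays. A deposited table of all arrays holds the same intensity, rounded (532764 of 532764 values within 1%). Control and outlier spots were left out, spots of a probe were averaged as log2 values, and these were set relative to their array's 75th percentile. Accessions matched 26581 of 39429 probes (67.4%) to RefSeq genes (GRCm38.p6), used for names, order and chromosomes.

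The limma package (3.58.1, R 4.3.3) was fitted with lmFit and eBayes to the 6 arrays of each comparison, and p-values were adjusted over all probes by Benjamini-Hochberg. Plots were made in matplotlib 3.10.9. Lists of genes used the brightest probe of a gene. The steps were tested on simulated data. The members and lists were chosen with earlier results of these data known. Named genes were all member probes, the genes of the lists, the 5 genes most like Pnma5 and the 3 most like each other member.

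Replicate numbers mark the slide. Deviations of arrays on a shared slide correlated at 0.678, 0.636 and 0.226 between the Dunn passages, so the slide paired these, and at -0.0701 to 0.334 in the other comparisons. The alternatives were quantile normalization, normexp correction (offset 50, on median signals, as the files used hold no mean signals), the table without scaling, a floor and a filter on dim probes, a joint fit over all arrays, the replicate block, the methods' t-test, the mean of a gene's probes and each array left out. The labels name RNeasy for RNA isolation, the study's methods TriReagent.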

Additional observations from a re-analysis of the deposited data

Results flagged for a closer look

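For Pnma5, the differences between late and early cells were 9.53, 9.25 and 9.85 in LM8 and -0.95, -1.49 and -0.53 in Dunn on slides 1 to 3, so their signs were opposite on every slide. No Dunn array and no early LM8 array was well above background for this probe, so the values in Dunn cells are not changes of a measured level and have no direction. The fitted difference between the lines, 10.53 on the scaled log2 scale, therefore rests on signals at background, and is neither a measured size nor a bound. It was not tested, since Pnma5 was picked on its late LM8 signal.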

How the results depend on the processing

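With no array left out, 283 of 347 values under the alternatives kept their direction and side of the threshold, or moved by less than the spread, and with arrays left out in turn 195 of 240 did. A call was lost in 23 and 28 of them, in genes of the lists. No Pnma probe was called with the main settings, so none could be lost. The late minus early LM8 difference of Pnma5 was 9.21 with quantile normalization, 6.04 with normexp correction, 9.90 with the table without scaling and 8.89 with a floor on dim signals, and 9.44 to 9.64 with each array left out. The replicate block left it at 9.54. The number of Pnma probes called between the early lines was 1 with quantile normalization, 1 with the table without scaling, 2 with the floor and 1 with 1 fit over all 12 arrays, in place of 0, and 0 to 2 with each array left out. It was 1 without early Dunn replicate 1 and 2 without early Dunn replicate 2. Over all these alternatives Pnma3 probe 1 was called in 4, and Pnma2 probe 2 and Pnma3 probe 2 in 2 each. The probes called with the floor were Pnma2 probe 2, detected on no array, and Pnma3 probe 2, detected on 1 early Dunn array and no early LM8 array. Their floored values are largely the dimmest detected signals of the arrays, so those calls are not differences of a measured level. The replicate block called 0 here and 0 in Dunn cells. Between the Dunn passages 0 were called under every alternative, arrays left out included (0 to 0).

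Some directions turned, for differences that had not passed an adjusted p under 0.05 with the main settings. Between the Dunn passages, Pnma1 was -0.70 with normexp correction and -1.25 without late Dunn replicate 1 (-1.25 to 1.71 with each array left out). Pnma3 probe 1 was -1.03 with normexp correction, -0.10 with the floor and -0.22 with the mean of its probes. Pnma2 probe 1 was -0.36 with the mean of its probes, -0.023 without early Dunn replicate 2 and -0.082 without late Dunn replicate 3 (-0.082 to 1.03). Between the early lines, Pnma1 was 0.42 with quantile normalization and 0.66 with the table without scaling. Pnma2 probe 1 was 0.92 with the table without scaling and 0.089 without early Dunn replicate 3 (-0.97 to 0.089). Pnma3 probe 1 was -1.31 with normexp correction, -0.069 with the floor and -0.15 with the mean of its probes. The cause was not tested. The filter on dim probes leaves out probes detected in neither group, which gives no value for them. Where an array is left out, the smaller group is assumed to vary like the other. Signal over background limits Pnma1, Pnma2 probe 2 and Pnma3 probe 2, whose differences lie near or below it.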
